A study of Mus musculus with 24 samples.

Results

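A set of 6 noncoding RNAs was followed through the 24 libraries: *Gm42418* and *Gm26917*, a pair of gene models at an rRNA-bearing locus of chromosome 17, the small nuclear RNA *Rn7sk*, the RNase MRP RNA *Rmrp*, and the long nuclear RNAs *Malat1* and *Neat1*. They were chosen by gene symbol, and make up 6 of the 54658 rows of the deposited table. Of these, 5 had a value above 0, and *Rmrp* was listed at 0 throughout. The members were picked with earlier results of these data known, so their levels are descriptions and the adjusted p-values given below are not independent evidence.

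The samples came from mouse embryos of 2 genotypes, Cep135 (-/-) mutants, which carry a constitutive CRISPR/Cas9 deletion in the centrosomal gene *Cep135* in every cell of the embryo, and Cep135 (+/+) controls, all maintained on a C57BL/6J background and given no drug. Each genotype was represented by 3 dorsal telencephalon cortices at E11.5, 3 at E14.5, and neurospheres (suspension cultures of dissociated progenitors grown with EGF and FGF2) made from the same 6 E14.5 embryos and collected after 12 h and after 24 h. Each library came from 1 embryo, and each E14.5 embryo gave 3 libraries (cortex, 12 h and 24 h). The genotype comparisons at E14.5, 12 h and 24 h thus reuse the same 6 embryos. The E14.5 embryos are numbered 1, 2 and 6 (mutants) and 3, 4 and 5 (controls). The titles of the E11.5 embryos carry 2 prefixes, 1 mutant and 1 control under the first and 2 of each under the other, but both mutants of the second set have a different prefix in their descriptions, and the labels do not say whether a prefix is a litter. The cortex of mutant 6 carries both ages in its labels and was taken as E14.5.

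Values are normalized read counts, that is, reads on a gene divided by 1 size factor per library. Libraries held 4732781 to 11645213 reads on genes. At 24 h the mutant libraries (7903426 to 11645213 reads) were all deeper than the control ones (4732781 to 5709443). *Cep135* itself ranged from 246 to 336 in mutants and 293 to 375 in controls at E11.5, and from 173 to 295 in mutants and 171 to 336 in controls at the later stages. Its reads lie at the 3′ end of the transcript, outside the deleted part, so they do not check the genotype. The dorsal telencephalon markers *Emx1*, *Emx2*, *Pax6*, *Eomes*, *Tbr1*, *Neurod2* and *Neurod6* were above 0 in every library. So were the ventral telencephalon markers *Dlx1* (341.2 to 1148), *Dlx2* (124.7 to 697.8), *Lhx6* (36.8 to 335.8) and *Nkx2-1* (1.01 to 111.9), while *Gsx2* had a median of 0. The dorsal markers thus do not show that the samples were free of ventral tissue. The summed level of 11 liver genes stood above 100 in 12 libraries of mixed genotype and stage. *Xist* and 4 Y-linked genes marked 2 of the 3 E14.5 mutants as female and all 3 E14.5 controls as male. Sex thus went largely with genotype in the E14.5 cortices and their cultures, and its part in the differences was not tested.

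*Rn7sk*, *Malat1* and *Neat1* act in the nucleus, whereas mature 18S rRNA leaves it to form part of the ribosome. Ribosomal RNA is transcribed by RNA polymerase I as one long precursor, in which an external transcribed spacer precedes the 18S sequence and is cut off and destroyed during maturation. *Rn7sk*, made by RNA polymerase III, holds the elongation factor P-TEFb inactive in a particle with HEXIM, LARP7 and MEPCE. *Rmrp* is the catalytic RNA of RNase MRP, which cuts the rRNA precursor. *Malat1*, whose mature form ends at a genome-encoded A-rich stretch, is retained in nuclear speckles, which store splicing factors, and *Neat1* is the scaffold of paraspeckles.

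The sequences bear on what an oligo(dT)-primed library can see, since none of the rRNA, *Rn7sk* or *Rmrp* transcripts carries a standard poly(A) tail and an internal run of A is one place where the primer can anneal. In the gene annotation (GENCODE vM21, GRCm38), *Gm26917* (ENSMUSG00000097971) occupies chr17:39843013-39846341 and *Gm42418* (ENSMUSG00000098178) chr17:39846958-39848788, both as unspliced lincRNA models on the plus strand. RefSeq places *Rn18s-rs5*, an 18S rRNA-related pseudogene, at chr17:39846354-39848202 of the same build. It starts 12 bases after the end of *Gm26917* and shares 1245 bases with *Gm42418*. *Rn7sk* (ENSMUSG00000065037) lies at chr9:78175303-78175633, *Malat1* (ENSMUSG00000092341) at chr19:5795690-5802672 and *Neat1* (ENSMUSG00000092274) at chr19:5824708-5845478, all 3 on the minus strand. The longest run of A in each transcript is printed below in capitals with its flanks, 5′ to 3′, from GENCODE vM21.
*Malat1* (chr19:5795958-5796029, minus): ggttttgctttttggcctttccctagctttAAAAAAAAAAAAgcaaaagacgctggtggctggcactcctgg
*Neat1* (chr19:5832875-5832941, minus): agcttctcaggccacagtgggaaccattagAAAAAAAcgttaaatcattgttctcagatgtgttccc
*Gm42418* (chr17:39847137-39847202, plus): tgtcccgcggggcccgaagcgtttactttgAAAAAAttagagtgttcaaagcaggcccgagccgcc
*Gm26917* (chr17:39845106-39845169, plus): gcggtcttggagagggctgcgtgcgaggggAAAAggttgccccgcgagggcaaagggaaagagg
*Rn7sk* (last 300 bases of 331, chr9:78175303-78175602, minus): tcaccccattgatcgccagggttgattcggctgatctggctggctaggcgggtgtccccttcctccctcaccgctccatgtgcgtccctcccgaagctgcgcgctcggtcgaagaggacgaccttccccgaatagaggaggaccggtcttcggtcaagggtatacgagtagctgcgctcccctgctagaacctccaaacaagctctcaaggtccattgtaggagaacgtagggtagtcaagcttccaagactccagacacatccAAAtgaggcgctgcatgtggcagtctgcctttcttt

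*Malat1* had the longest run, 12 A, which ended 298 bases before the 3′ end of its 6983-base annotated transcript. Since mature *Malat1* ends at an A-rich stretch, this annotated end need not be that of the mature RNA, and the run need not be internal to it. Of the 2243 annotated transcripts of like length (0.8 to 1.2 times), 22.2% held a run as long. *Neat1*, with 20771 bases, had 2 runs of 7 A, against a median longest run of 9 in 38 transcripts of like length. The run of 6 A in *Gm42418* equalled the median of its length class. *Gm26917* was poor in A (8.26% of 3329 bases), and its longest run of 4 A was matched or exceeded in 99.9% of 7209 transcripts of like length. *Rn7sk* held 2 runs of 3 A, of which the later is shown, and 98.6% of 4014 like transcripts held a run as long. The share of reads that began at any such run was not tested, since the table holds gene totals only.

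*Rmrp* has 2 gene models under the same symbol and on the same strand of chromosome 4, a lincRNA (ENSMUSG00000115420, chr4:43492783-43493063) and, nested inside it, a ribozyme (ENSMUSG00000088088, chr4:43492788-43493058). The longer model is printed with the 271 bases it shares with the shorter one in capitals.
*Rmrp* (minus strand): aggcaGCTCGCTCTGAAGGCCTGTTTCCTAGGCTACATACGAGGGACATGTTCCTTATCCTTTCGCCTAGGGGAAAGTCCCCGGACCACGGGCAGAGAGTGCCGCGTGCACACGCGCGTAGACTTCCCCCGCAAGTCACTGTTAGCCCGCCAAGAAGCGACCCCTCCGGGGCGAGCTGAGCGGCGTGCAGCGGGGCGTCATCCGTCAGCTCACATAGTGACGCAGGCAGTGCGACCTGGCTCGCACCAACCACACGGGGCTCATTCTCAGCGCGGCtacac

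*Rmrp* was 0 in all 24 libraries. A count of 0 allows up to 3 reads, or 6.34e-05% of the smallest library, and this limit covers counting error only. How reads on nested models of one symbol were assigned is not given in the sources used here. Of 88 symbols held by several gene models that overlap on one strand, 24 (27.3%) were at 0 in every library. The share was 38.9% of 18 symbols with several models that do not overlap so, and 37.4% of all rows. The 88 include overlaps of any extent, so these shares cannot decide the case of nearly identical models. The part of the nested models in the value of *Rmrp* was not tested. *Rpph1*, the RNA of the related RNase P, was detected in every group, with means of 7.52 to 55.0. Of the 10 RNase MRP and P protein subunits, 0 passed the test in any comparison of mutants with controls by limma. At E11.5 only 9 were tested, since *Rpp25* was too scarce there (1.12 to 3.87 in mutants, 2.02 to 5.02 in controls). Between E11.5 and E14.5, where 23.8% of all genes were called higher and 29.3% lower, *Rpp25* rose by 2.85 ± 0.33 (log2, SE) and *Pop1*, *Pop4*, *Rpp38* and *Rpp40* fell.

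Lists of genes that make, bind or process these RNAs were read beside them, 63 to 65 of which were abundant enough to test at each stage. Between genotypes 0 were called at each of the 4 stages by limma and by edgeR. The limma counts at an unadjusted p below 0.05 were 6 at E11.5, 5 at E14.5, 0 at 12 h and 7 at 24 h. DESeq2 called 1 at E11.5, 1 at E14.5 (the long noncoding RNA *Snhg11*), 0 at 12 h and 1 at 24 h (*Gm23935*, an rRNA-bearing model).

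**Figure D1:**
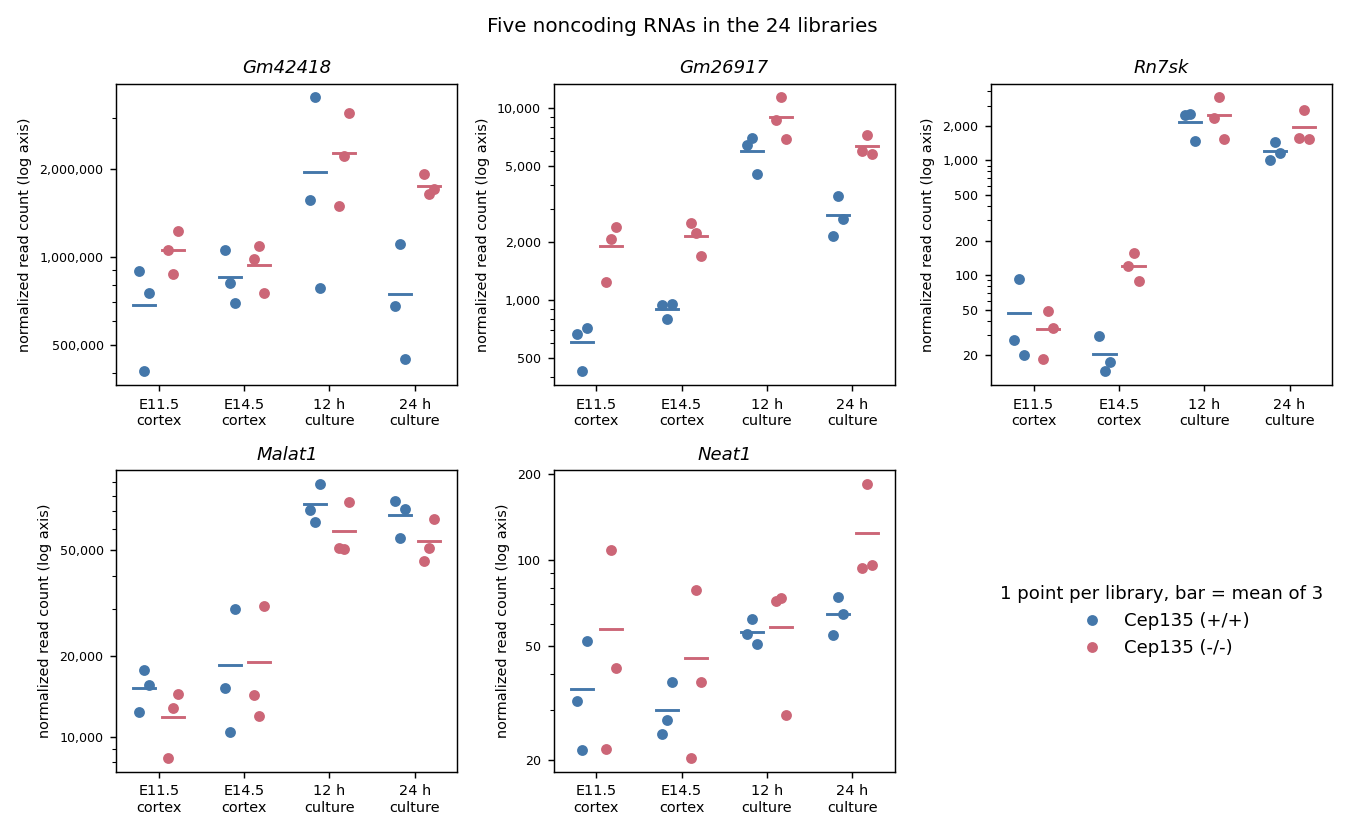
Normalized read count (log axis) of the 5 RNAs above 0, with 1 point per library, bars at the mean of 3, stages along the x axis and genotypes by colour. *Rn7sk* lay between 14.52 and 155 in the 12 cortices and between 999.5 and 3539 in the 12 cultures, and *Gm26917* was higher in each mutant than in each control at E11.5, E14.5 and 24 h.

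*Gm42418* took more reads than any other gene in every library. It held 6.11% to 16.7% of normalized counts in cortices and 6.26% to 34.8% in cultures. The E11.5 controls were at 404706, 754142 and 892583 and the mutants at 872835, 1056520 and 1229650. The groups overlapped, with a log2 difference of 0.69 ± 0.32 (SE, adjusted p = 0.6765, limma). At E14.5 the controls stood at 694830, 811508 and 1056410 and the mutants at 750844, 980058 and 1091970. These overlapped almost fully (0.14 ± 0.32, adjusted p = 0.9083). The widest spread was at 12 h, where the controls ran from 782349 to 3526510 and the mutants from 1492190 to 3106250 (0.42 ± 0.42, adjusted p = 0.9159). At 24 h the controls were at 446612, 679413 and 1109920 and the mutants at 1641540, 1705200 and 1923300, with no overlap. That difference of 1.33 ± 0.28 was known before the RNA was chosen and is given without a test. On the opposite strand, the rRNA model CT010467.1, which covers the whole of *Gm42418*, reached no more than 3.15.

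In order of group means, *Gm42418* ran from E11.5 controls (683800 ± 251400, SD, n = 3) and 24 h controls (745300 ± 336500) through the E14.5 cortices and E11.5 mutants up to 24 h mutants (1757000 ± 147800), 12 h controls and 12 h mutants (2271000 ± 808500). Neighbours in this order differed by less than the larger SD of the pair, apart from the step from E11.5 mutants (1053000 ± 178400) to 24 h mutants. From cortex to 12 h culture *Gm42418* rose by 1.09 ± 0.36 (adjusted p = 0.0311, limma) and was higher in all 6 embryos. The call was lost when libraries were scaled to their total reads (0.82, adjusted p = 0.118) and without 8 single libraries, of which the 12 h culture of control 4 moved the value most (0.86, adjusted p = 0.0628). The others were the cortices of mutants 1, 2 and 6 and controls 4 and 5 and the 12 h cultures of mutants 2 and 6 (0.96 to 1.12, adjusted p = 0.0503 to 0.0578).

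*Gm26917*, whose model ends just before the 18S-related sequence, was higher in mutants than in controls in 3 of the 4 comparisons without overlap. At E11.5 the controls were at 426, 669 and 719 and the mutants at 1242, 2092 and 2397. Every mutant lay above every control. The fitted fold was 3.12 (log2 1.64 ± 0.25, SE), with an adjusted p of 0.1535. At this age 0.0149% of genes were called, and of the 5 members 0 were called by limma and by edgeR and 1, *Gm26917*, by DESeq2 (adjusted p = 0.00414). One member had an unadjusted p below 0.05. Without E11.5 mutant 1 the log2 difference was 1.92 and its adjusted p 0.0415 (2 genes called in all), and with all 24 libraries in the fit the adjusted p was 0.00139 (8 genes). *Gm26917* stayed uncalled without any other single library, for example at 1.45 (adjusted p = 0.841) without mutant 3. With the log2 share of *Gm42418* as a term it was at 1.24 (adjusted p = 0.844). The share of genes with every mutant above every control was 7.16%. Several marker sums separated the same libraries: liver genes summed to 15.6 to 819.9 in mutants and 6.22 to 14.2 in controls, endothelial genes to 971.5 to 1109 against 845.5 to 958.3, dorsal telencephalon markers to 2727 to 3015 against 3203 to 3948, and ventral telencephalon markers to 704.5 to 873.4 against 1006 to 1241. Their part in the result was not tested.

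At E14.5 *Gm26917* stood at 795, 949 and 959 in controls and at 1705, 2247 and 2518 in mutants. The groups were apart by more than the range of the controls. The log2 difference was 1.24 ± 0.16 (fold 2.37, adjusted p = 0.0187, limma). Of the 5 members, 2 (*Gm26917* and *Rn7sk*) were called higher at this age. The *Rn7sk* pattern was known when that RNA was chosen, and *Gm26917* too was picked with earlier results of these data known. Both calls are thus descriptions only. Over all genes 0.0442% were called higher, 0.0736% in either direction, and 7.02% had every mutant above every control. The call of *Gm26917* was lost without mutant 1 (1.12, adjusted p = 0.130), mutant 2 (1.21, 0.166) or control 4 (1.16, 0.149). In these fits 3, 3 and 1 genes were called in all, and *Rn7sk* lost its call in the same fits. Without the 2 controls whose liver genes summed above 100, only 1 control remained, and the log2 difference of *Gm26917* was 1.16. Mutant 6, the 1 male mutant, was at 1705. All 3 controls were male, and the part of sex in the difference was not tested. Microglia markers (6 genes) were also higher in mutants, with sums of 735.3 to 897.6 against 383.5 to 448.1 in controls. The 4 neuron markers went the other way, at 20420 to 21050 against 24830 to 26790. So did the dorsal telencephalon markers, at 7194 to 10250 against 11530 to 12360. Their part in the result was not tested, and in such tissue samples more cells of a type and more RNA per cell cannot be told apart.

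In 12 h cultures *Gm26917* overlapped between genotypes, with controls at 4540, 6432 and 6973 and mutants at 6891, 8676 and 11423. Of the mutant cultures, 2 exceeded all controls, and the log2 difference was 0.58 ± 0.20 (adjusted p = 0.9135). No gene passed the limma test at 12 h (0% called, 650 with an unadjusted p below 0.05). For the members, the count was 0 by limma, edgeR and DESeq2, and 1 at an unadjusted p below 0.05. At 24 h the groups parted again, with controls at 2172, 2640 and 3507 and mutants at 5752, 5975 and 7307. The log2 difference was 1.21 ± 0.16 (fold 2.32, adjusted p = 0.0109, limma). *Gm26917* was the 1 member called at 24 h, where 0.271% of genes were called, 0.12% higher. This call, too, is a description only, since the members were picked with earlier results known. With the log2 share of *Gm42418* as a term the difference was 0.84 and its adjusted p 0.939, in a fit that called 0 genes. That share also parted the genotypes at 24 h, where the 2 rRNA-locus models together held 20.6% to 23.1% of counts in mutants and 6.29% to 13.96% in controls. At 24 h 4 of 5 members had every mutant above every control (7.15% of genes). The mutant libraries were also deeper at this time, their liver genes summed to 114.6 to 411.2 against 1.69 to 6.83, their 3 choroid plexus markers to 4865 to 16480 against 768.9 to 3544, their 5 neural progenitor markers to 11290 to 12550 against 8809 to 10020, and their dorsal telencephalon markers to 6386 to 7515 against 7870 to 11110. The part of each in the result was not tested.

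**Figure D2:**
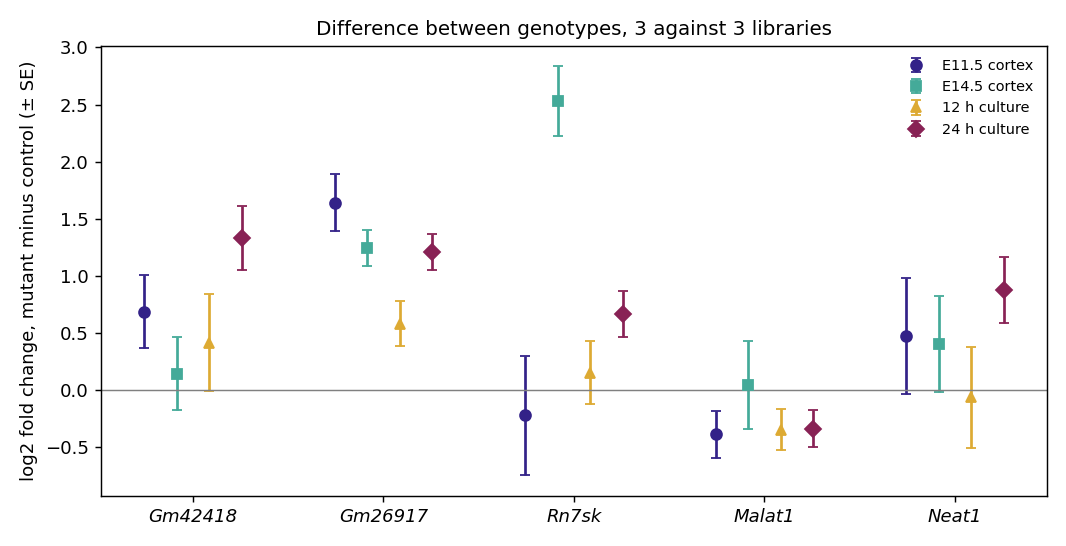
Fitted log2 fold change of mutants against controls (± SE, 3 against 3 libraries) for each RNA, with 1 symbol per stage. *Gm26917* lay above 0 at all 4 stages (0.58 to 1.64), *Rn7sk* reached 2.53 at E14.5, and *Malat1* stayed between -0.39 and 0.05.

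No change between stages in the genotype difference of *Gm26917* passed the test. The interaction was -0.40 (95% interval -1.10 to 0.31, adjusted p = 0.7371) for E14.5 against E11.5 cortices and -0.03 (-0.55 to 0.49, adjusted p = 0.9841) for 24 h cultures against E14.5 cortices. Missing the threshold does not show that the effects were alike. No gene passed the interaction with 24 h culture by limma (0%, 836 at an unadjusted p below 0.05). For the members it was 0 by limma and edgeR, 1 by DESeq2, and 2 at an unadjusted p below 0.05. The member called by DESeq2 was *Rn7sk*, whose pattern was known when it was chosen.

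Relative to *Gm42418*, *Gm26917* separated the genotypes in cortex but not in culture. There were 0.918 ± 0.154 (SD, n = 3) *Gm26917* reads per 1000 *Gm42418* reads in E11.5 controls and 1.84 ± 0.618 in mutants. At E14.5 the ratio was 1.09 ± 0.258 in controls and 2.299 ± 0.257 in mutants. The 6 ratios of each age did not overlap between genotypes. At 12 h controls were at 3.97 ± 1.92 and mutants at 4.40 ± 1.92, and at 24 h at 4.09 ± 1.58 and 3.64 ± 0.712. These overlapped within their SD, and each of the 12 cultures except the 12 h cultures of control 4 (1.98) and mutant 6 (2.22) exceeded all 12 cortices. In those 2 libraries *Gm42418* took its 2 highest shares, 34.8% and 32.7%.

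**Figure D3:**
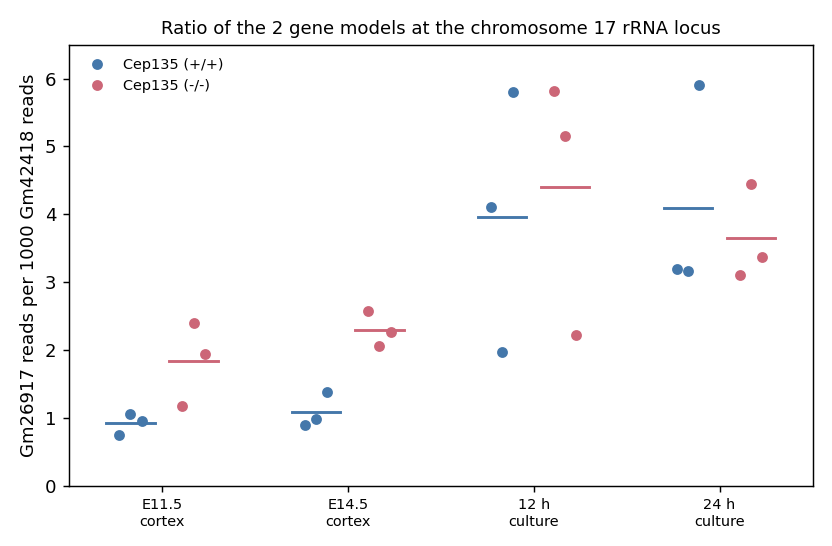
*Gm26917* reads per 1000 *Gm42418* reads (linear axis from 0), with 1 point per library, bars at the mean of 3 and genotypes by colour. Mutant cortices lay at 1.18 to 2.57 and control cortices at 0.750 to 1.38, while both genotypes spread from 1.98 to 5.91 in culture.

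*Gm26917* also rose with culture. It increased from E14.5 cortex to 12 h culture by 2.38 ± 0.16 (fold 5.20, adjusted p = 4.374e-08, limma), from a range of 795 to 2518 to one of 4540 to 11423, without overlap and in 6 of 6 embryos. In this contrast 30.2% of genes were called, 14.1% higher and 16.1% lower. From 12 h to 24 h it fell by 0.80 ± 0.16 on the log2 scale (adjusted p = 0.0341; 0.292% of genes called, 0.142% lower), and was lower in each of the 6 embryos. That call was lost on scaling to total reads (-0.66, adjusted p = 0.0828), with the share of *Gm42418* as a term (-0.58, adjusted p = 0.368), and without any one of 8 libraries (-0.69 to -0.84, adjusted p = 0.0566 to 0.101, with 19 to 30 genes called in all), namely the 12 h cultures of mutant 2 and controls 3 and 4 and the 24 h cultures of mutants 1 and 6 and controls 3, 4 and 5. These fits left out the pairing of cultures by embryo. With the embryo as a block the fall from 12 h to 24 h had an adjusted p of 0.000673 (limma). Between E11.5 and E14.5 cortices the difference was 0.41 ± 0.17 (adjusted p = 0.0521 by limma, 0.0422 by edgeR and 0.0289 by DESeq2).

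Markers of other cells moved with the step from cortex to culture. The 6 microglia markers summed to 383.5 to 897.6 in the E14.5 cortices and to 6.31 to 40.9 in 12 h cultures, where *Aif1*, *C1qb* and *P2ry12* were at 0 in at least 1 library. The 5 endothelial markers went from 741.1 to 860.5 down to 20.5 to 68.4, with *Cdh5*, *Cldn5* and *Tie1* at 0 in at least 1 culture, and the 6 erythroid markers from 31330 to 40050 up to 57510 to 125000. Their part in the rises of *Gm26917*, *Gm42418*, *Rn7sk* and *Malat1* with culture was not tested.

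Among the 12 RNA polymerase I genes and the 6 nucleolar genes of rRNA processing, 0 were called between genotypes at any of the 4 stages. Between E11.5 and E14.5, where 53.1% of genes were called and 29.3% were lower, all 6 nucleolar genes (*Ncl*, *Fbl*, *Nop56*, *Nop58*, *Dkc1* and *Npm1*) and 6 of the 12 polymerase I genes fell, among them *Polr1a*, the largest subunit, by 0.70 ± 0.09 on the log2 scale, and *Npm1* by 0.79 ± 0.14. From cortex to 12 h culture, where 30.2% of genes were called and 14.1% were higher, all 6 nucleolar genes rose, *Ncl* (nucleolin) by 0.88 ± 0.12, and so did *Polr1a* (0.69), *Rrn3* (0.40) and *Taf1d* (0.86). The list medians were 0.61 for the nucleolar and 0.06 for the polymerase I genes, against -0.06 for all genes. Of the other rRNA-bearing models, *Lars2* (1.82 ± 0.25) and *Gm23935* (1.52 ± 0.37) rose with culture. *Gm23935* had the lowest adjusted p of any listed partner between genotypes at 24 h (1.09, adjusted p = 0.1064), with 39.6 to 55.6 in controls and 89.1 to 116 in mutants.

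*Rn7sk* had the largest fold rise with culture of the 5 members above 0. In E11.5 cortices it stood at 20.2, 27.2 and 92.0 in controls and at 18.7, 34.6 and 49.1 in mutants, and the genotypes overlapped (-0.22 ± 0.52, adjusted p = 0.9263). In E14.5 controls it was at 14.52, 17.4 and 29.4, from 20, 20 and 25 reads, and in mutants at 88.5, 120 and 155, from 113, 106 and 140 reads. Every mutant thus lay above every control, with the lowest mutant at 88.5 and the highest control at 29.4. The fitted fold was 5.78 (log2 2.53 ± 0.30), given without a test because the pattern was known when the RNA was chosen. Mutant 6, the male mutant, had the lowest mutant value, 88.5, and the part of sex in the difference was not tested. The microglia, neuron and dorsal telencephalon sums that parted the E14.5 genotypes come from the same libraries, and their part in this difference was not tested. Without the 2 controls with liver transcripts the log2 difference was 1.97, from the 1 remaining control.

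The contrast between ages in the genotype difference of *Rn7sk* was 2.75 ± 0.68 (95% interval 1.31 to 4.19, not adjusted, with an adjusted p = 0.5211 by limma). No gene passed this interaction test by limma (0%, 1070 at an unadjusted p below 0.05). For the members, the count was 0 by limma and edgeR and 1, *Rn7sk*, by DESeq2 (3.04, adjusted p = 0.016). The E14.5 pattern that enters this contrast was known when the RNA was chosen, so these values are a description only. One control, E11.5 control 2, carried a high value (92.0) against 27.2 and 20.2 in the others. Across ages as a whole *Rn7sk* did not pass the test (0.48 ± 0.48, adjusted p = 0.4144).

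After 12 h in culture *Rn7sk* stood at 1461, 2500 and 2541 in controls and at 1544, 2345 and 3539 in mutants. The lowest of these, 1461, stood far above the highest E14.5 cortex, 155, and the fitted log2 rise was 5.49 ± 0.37 (fold 44.9, adjusted p = 4.125e-08, limma). Within embryos the rise was 6.31 to 7.36 in controls and 4.11 to 4.51 in mutants. These rises start from the E14.5 cortex values, whose pattern was known when the RNA was chosen. The genotypes overlapped at 12 h (0.16 ± 0.27, adjusted p = 0.9447). At 24 h *Rn7sk* was at 1000, 1155 and 1434 in controls and at 1543, 1558 and 2755 in mutants. Each mutant was above each control (0.67 ± 0.20), given without a test. From 12 h to 24 h it was lower in 6 of 6 embryos, by 0.34 to 1.32 in controls and by 0.002 to 0.59 in mutants. That change did not pass the test (-0.57 ± 0.20, adjusted p = 0.3211), and passed it with the embryo as a block (adjusted p = 0.0225).

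**Figure D4:**
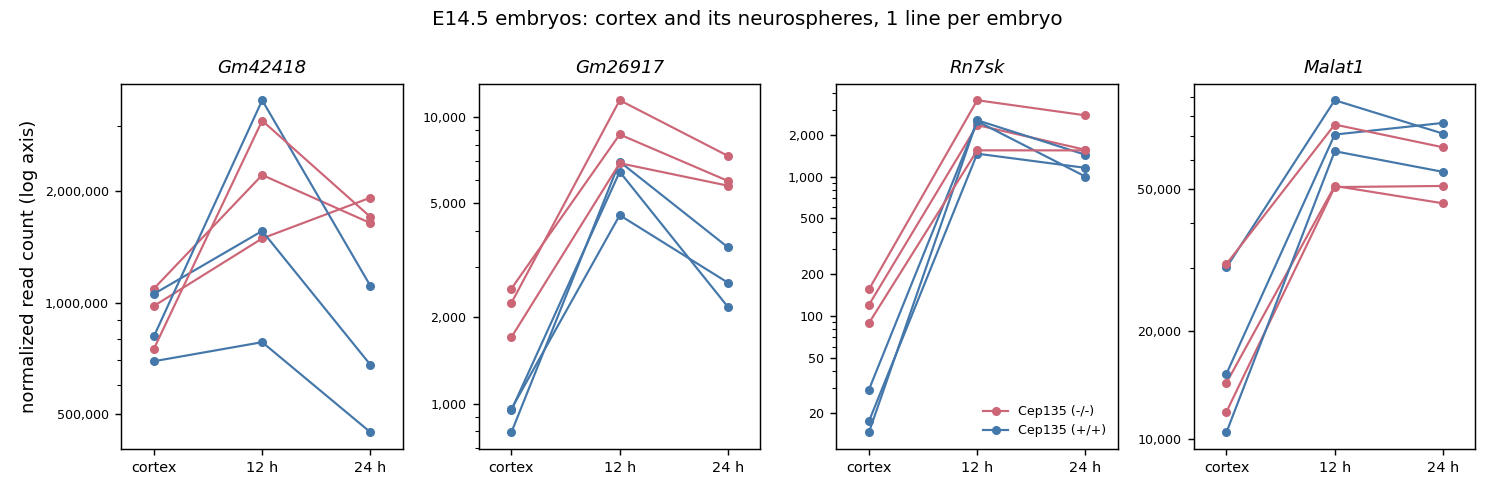
Normalized read count (log axis) in each E14.5 embryo's cortex and in its neurospheres at 12 h and 24 h, with 1 line per embryo coloured by genotype. All 6 lines rise from cortex to 12 h in each of the 4 RNAs, and those of *Gm26917* and *Rn7sk* then descend in all 6 embryos.

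The 7 genes of the 7SK particle and P-TEFb (*Larp7*, *Mepce*, *Hexim1*, *Hexim2*, *Cdk9*, *Ccnt1* and *Ccnt2*) had 0 calls between genotypes. In E14.5 cortices *Larp7*, which binds and stabilises the 3′ end of the RNA, differed by 0.31 ± 0.18 (adjusted p = 0.6162), *Mepce*, which caps it, by 0.18 ± 0.18 (0.7693), and *Hexim1*, the P-TEFb inhibitor, by -0.17 ± 0.19 (0.7891). With culture *Ccnt2*, a cyclin of P-TEFb, rose by 0.67 ± 0.17 (adjusted p = 0.0068) and the other 6 did not pass. Between E11.5 and E14.5 *Larp7* fell by 1.23 ± 0.18 and *Ccnt2* by 0.33 ± 0.12, and *Hexim2* rose by 0.89 ± 0.28. Of 11 other small structured RNAs, 5 were abundant enough to test from cortex to 12 h culture, and *Scarna2*, a guide RNA of Cajal bodies, rose (2.21 ± 0.77, adjusted p = 0.0407), at 1.10 to 5.65 in cortices and 0 to 59.8 in cultures. *Rny1*, a Y RNA of the Ro particle, lay at 54.9 to 117 in cortices and at 26.0 to 153 in 12 h cultures.

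*Malat1* did not separate the genotypes at any stage. At E11.5 it was at 12345, 15545 and 17823 in controls and at 8308, 12768 and 14419 in mutants (-0.39 ± 0.20, adjusted p = 0.6838). At E14.5 it ranged from 10429 to 30123 in controls and from 11898 to 30808 in mutants, and the genotypes covered the same range (0.05 ± 0.39, adjusted p = 0.9814). The high value of each group was control 5 and mutant 6. Means were lower in mutants in both cultures, 59010 ± 14350 (SD, n = 3) against 74310 ± 12720 at 12 h and 53910 ± 10220 against 67810 ± 10750 at 24 h. Neither difference passed the test (-0.35 ± 0.18, adjusted p = 0.9135, and -0.33 ± 0.16, adjusted p = 0.4912), and the 95% interval at 24 h ran from -0.68 to 0.01.

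Across stages *Malat1* formed 2 levels. The 12 cortices lay between 8308 and 30808, which is 0.111% to 0.447% of a library, and the 12 cultures between 45523 and 88391, or 0.546% to 1.21%. The rise from E14.5 cortex to 12 h culture was 1.93 ± 0.25 (fold 3.82, adjusted p = 3.967e-05, limma) and was seen in 6 of 6 embryos, by 1.30 to 2.61 on the log2 scale. From 12 h to 24 h (-0.13 ± 0.13, adjusted p = 0.8125) and from E11.5 to E14.5 (0.38 ± 0.26, adjusted p = 0.2318) the differences were smaller and uncalled. Of the 4 members called from cortex to 12 h culture (*Gm42418*, *Gm26917*, *Rn7sk* and *Malat1*), where 14.1% of all genes were called higher, 3 did not overlap between stages, and 6.66% of genes did not overlap in that direction.

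Among 7 nuclear speckle proteins, 3 rose from cortex to 12 h culture (14.1% of all genes) and 1 fell (16.1%). *Son* and *Srrm2*, large scaffold proteins of the speckle, rose by 0.51 ± 0.12 and 0.51 ± 0.12, and *Srrm1*, a splicing coactivator, by 0.50 ± 0.10, while the splicing factor *Srsf3* fell by 0.26 ± 0.08. Between the ages 6 of the 7 fell, by 0.40 to 0.51 on the log2 scale, where 29.3% of all genes were called lower. None of the 7 was called between genotypes (0 by limma). Other long noncoding RNAs moved in both directions with culture. *Kcnq1ot1* (1.11 ± 0.19), *Meg3* (0.67 ± 0.17) and *Snhg1* (0.48 ± 0.13) rose, and the imprinted *H19* (-2.93 ± 0.18) and *Snhg11* (-1.19 ± 0.16) fell.

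*Neat1* was scarce and rested on 18 to 182 reads per library. At E11.5 it stood at 21.7, 32.2 and 52.1 in controls and at 21.9, 41.8 and 108 in mutants (0.47 ± 0.51, adjusted p = 0.8251). At E14.5 controls were at 24.7, 27.6 and 37.5 and mutants at 20.3, 37.6 and 78.4 (0.40 ± 0.42, adjusted p = 0.7782). One mutant of each age was high. The others lay among the controls at E11.5. At E14.5 they lay at 20.3, below all controls, and at 37.6, just above the highest control. In 12 h cultures it was at 50.9, 55.1 and 62.2 in controls and at 28.7, 72.1 and 73.7 in mutants (-0.06 ± 0.44, adjusted p = 0.9915). At 24 h controls were at 54.6, 65.0 and 74.1 and mutants at 93.9, 96.0 and 184. Those groups did not overlap, but the difference of 0.88 ± 0.29 did not pass the test (adjusted p = 0.2703).

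From cortex to 12 h *Neat1* was higher in 3 of 3 controls and in 1 of 3 mutants (0.67 ± 0.33 over both, adjusted p = 0.1328), and at 24 h it was above the cortex in all 6 embryos, by 0.78 to 2.15 on the log2 scale. Its order of group means ran from E14.5 controls (29.9 ± 6.71, SD) and E11.5 controls (35.4 ± 15.4) to 24 h controls (64.6 ± 9.77) and 24 h mutants (125 ± 51.6), and the last pair of neighbours was the 1 step larger than the SD of the lower group without overlap. Of 7 paraspeckle proteins 0 were called between genotypes or with culture by limma, and *Nono*, *Rbm14*, *Hnrnpk* and *Tardbp* fell between E11.5 and E14.5, by 0.35 to 0.53, as did 29.3% of all genes.

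The nearest patterns over the 24 libraries were found by Pearson's r on the log2 values of 13673 other genes. *Rn7sk* was nearest to *Klf6* (0.962), *Fdps* (0.955) and *Egr1* (0.952), and *Malat1* to *Sltm* (0.978), *Atrx* (0.965) and *Ggnbp2* (0.963). *Gm26917* was nearest to *Actb* and *Cdkn1a* (0.898 each) and *Sesn2* (0.891), *Gm42418* to *AA474408* (0.897), and *Neat1* to *Map3k20* (0.815). *Gm42418* had r = 0.852 with *Gm23935*. These libraries share stages and embryos, so the coefficients describe mainly the step from cortex to culture. Among the members, *Rn7sk* and *Malat1* had r = 0.883 over the 24 libraries and -0.08 once group means were removed, and *Gm26917* and *Rn7sk* 0.881 and 0.302. *Gm42418* and *Gm26917*, which adjoin on the chromosome, had 0.747 and 0.462. Within groups *Rn7sk* and *Gm26917* ran against library depth (r = -0.615 and -0.503 over 24 libraries), and the part of depth in their values was not tested.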

How the data were processed

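RNA of 24 libraries was primed with oligo(dT) and sequenced from the 3′ end (QuantSeq 3′ FWD, stranded). The authors aligned reads to GRCm38 with TopHat (version 2.0.10), which ran Bowtie (version 1.0.0) with SAMtools (version 0.1.19), counted them on GENCODE vM20 genes with HTSeq-count (version 0.6.1). The authors deposited a single table of signal values, each being a gene's count after division by the size factor of its library. Replicates were not pooled. Each of the 484666 nonzero values came out as a whole number of reads (tolerance 0.001 reads), and these reads entered edgeR and DESeq2. The alignment let a read have 3 mismatches and up to 20 hits, and counting used strand. How the counter treated reads with several hits, such as those from rRNA copies, is not given in the sources used here.

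Groups came from the sample labels. Genes with a mean of at least 10 were tested with limma (version 3.58.1, R 4.3.3) with an intensity trend on log2(normalized count + 1), with Benjamini-Hochberg adjustment over all genes tested and a threshold of 0.05. Fold changes are on that scale, which understates changes of scarce genes. Stage contrasts had genotype as a term. The members and gene lists were chosen with earlier results of these data known. The genes named are the members, those of the lists, and for each member the 3 genes of highest Pearson's r. Some genes that this rule names are not reported here. Alternatives were a pseudocount of 5, no filter or a mean of 50, scaling to all reads or to reads outside the members, quantile normalization, edgeR (4.0.16), DESeq2 (1.42.0), 1 fit over all 24 libraries, title prefix or embryo as a block, and leaving out each library. A term for the share of *Gm42418* and leaving out the 12 libraries with liver genes above 100 were added after the data had been seen.

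Cortex and cultures of one embryo are paired by the labels. Deviations from group means correlated at -0.114 to 0.235 over 18 pairs, with 12 above 0.1. No 2 libraries were identical. The steps were tested on simulated counts. Gene positions and sequences came from GENCODE vM21.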

Additional observations from a re-analysis of the deposited data

Results flagged for a closer look

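The difference between genotypes in *Rn7sk* itself differed between tissue and culture once the embryo was a block: the log2 difference was lower by 1.87 in 24 h cultures than in E14.5 cortices (interaction -1.87). Without the block the value was the same size and did not pass the test by limma after adjustment over all genes (95% interval -2.67 to -1.06, not adjusted). This pattern was known when the RNA was chosen, and is given as a description.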

How the results depend on the processing

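The 45 results on single RNAs were recomputed under 891 alternatives, of which 800 left direction and call as they were, 28 ended a call, 25 made one and 38 changed the direction. The number of members called changed as follows. In E11.5 cortices it was 1 in place of 0 with no filter, by DESeq2 and with all 24 libraries, while the count over all genes was 17, 34 and 8 in place of 2. In E14.5 cortices it was 0 in place of 2 without the libraries with liver transcripts, which left 1 control and called 0 of all genes, so that this 0 says nothing about the members. At 24 h it was 2 in place of 1 scaled to total reads, scaled to reads outside the members, by edgeR and by DESeq2 (128, 34, 40 and 182 of all genes in place of 36). The added member was *Rn7sk* by DESeq2 and *Gm42418* in the others. Both 24 h differences were known before the RNAs were chosen, so these added calls are descriptions only. With the share of *Gm42418* as a term the number at 24 h was 0, and 0 of all genes were called. Between E11.5 and E14.5 cortices it was 1 in place of 0 scaled to total reads, by edgeR, by DESeq2 and with the share of *Gm42418* as a term (7259, 7048, 7220 and 7546 of all genes in place of 7247). Between 12 h and 24 h it was 0 in place of 1 scaled to total reads and with that term (36 and 14 of all genes in place of 39). For the interaction of genotype with age it was 1 by DESeq2 (17 of all genes in place of 0), and for that with 24 h culture 1 by DESeq2 (20 in place of 0). With the embryo as a replicate block it was 2 between 12 h and 24 h (*Rn7sk* joined *Gm26917*, with 104 of all genes) and 1 for the interaction with 24 h culture (*Rn7sk*, with 6 of all genes), and the block changed no other count.

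Leaving out 1 library at a time, the number called ran from 0 to 1 in E11.5 cortices (0 to 8 over all genes), 0 to 2 in E14.5 cortices (1 to 74), 0 to 0 at 12 h (0 to 7), 1 to 2 at 24 h (7 to 46), 0 to 1 between the ages (6741 to 7204), 3 to 4 from cortex to 12 h culture (3197 to 4706), 0 to 1 from 12 h to 24 h (19 to 44), 0 to 0 for the interaction with age (0 to 1), and 0 to 1 for that with 24 h culture (0 to 17). At 24 h the 2 arose without control 4, where *Gm42418* was added. The interaction reached 1 without the cortex of control 3.

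Direction changed in 15 results, 0 of them called in the main test, with adjusted p-values of at least 0.661. The interaction of genotype with 24 h culture for *Gm26917* was 0.0258 scaled to reads outside the members, 0.0828 by quantile normalization and -0.193 to 0.153 with 1 library left out. For *Malat1* it was 0.524 with the share of *Gm42418* and -0.801 to 0.0314 with 1 library left out. That share as a term also gave 0.076 for *Malat1* at 24 h, 0.0275 for the interaction with age of *Neat1*, and 0.808 for *Rn7sk* at E11.5. Scaled to total reads, *Malat1* from 12 h to 24 h was 0.0111 and the interaction with age of *Neat1* 0.00188. *Neat1* at 12 h was 0.0634 by edgeR and 0.0647 by DESeq2. Without the libraries with liver transcripts, *Gm42418* at E14.5 was -0.184 and *Rn7sk* at E11.5 0.392. With 1 library left out, the values ran from -0.0759 to 0.204 for *Gm42418* between the ages and -0.111 to 0.975 at 12 h, -0.366 to 0.466 for *Malat1* at E14.5, and -0.143 to 0.455 for *Rn7sk* at 12 h and -0.645 to 0.421 at E11.5. For *Neat1* they ran from -0.433 to 0.0673 between the ages, -0.595 to 0.53 for the interaction with age, -0.288 to 0.378 at 12 h, -0.128 to 0.998 at E11.5 and -0.0869 to 0.861 at E14.5. The cause of these changes was not tested. Quantile normalization gives the top-ranked gene 1 value in all libraries by construction, so no value of *Gm42418* was taken from it. With 3 libraries per group, replication limits every genotype comparison, and the scarce RNAs (*Rn7sk* in cortex, *Neat1*) rest on 18 to 182 reads.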
